A study of Mus musculus with 9 samples.

Results

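Hearts of 10-week-old C57BL/6 mice were compared with hearts of 7-day-old mice of the same inbred strain, with 3 arrays at each age. These 6 of the 9 arrays of the study were taken by the age in their labels. The other 3 arrays, from 24-hour-old mice, entered the fit to share its estimate of the spread and gave the first-week step. Total RNA labelled with biotin was read on the Affymetrix Mouse Gene 1.0 ST array, on which a set of short probes reports a gene. Of 35556 features, 21789 have a single gene symbol, and these gave 19938 genes. Where a gene had more than 1 feature, as 999 did, the brightest over all arrays stood for it. All mice were untreated as far as the labels say, and no genetic change is named. The labels describe the tissue as cardiac muscle of the heart and give neither sex, chamber, time of day nor the number of hearts behind an array. Nothing says that the replicates of an age were separate animals, so each p-value measures only the spread between these samples, which may be technical.

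Between the first week and adulthood the mouse heart grows mainly by enlargement of its muscle cells, most of which stop dividing after birth. The newborn heart burns much glucose and lactate, and the suckling and then the adult heart draws its energy mostly from fatty acids. Isoforms of contractile proteins and ion channels are exchanged over the same time, the collagen scaffold is laid down and then renewed slowly, and immune cells settle in the tissue.

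Signals are log2 values, and an array has no sequencing depth. Precision is given by the standard error (SE) of a difference, which had a median of 0.076 over all genes. Over genes, arrays of 1 age correlated at 0.995 to 0.998 (7-day) and 0.994 to 0.996 (10-week), and arrays of different age at 0.965 to 0.971. Over the genes tested, the array medians were 5.56 to 5.58 at 7 days and 5.50 to 5.52 at 10 weeks, and the interquartile range was 3.20 to 3.23 on the 10-week arrays and 3.34 to 3.39 on the 7-day arrays. Of 9882 genes with a mean at or below the median signal 1101 were called higher and 481 lower. Of 10056 genes above it 2287 were called higher and 3296 lower. Most gene lists below hold mainly genes above the median, so these counts are the nearer measure for them. The lists were chosen with earlier results of these data known. Quantile normalization, which gives every array the same spread, is set beside the counts below. The 7-day replicates 2 and 3 carried transcripts of brown fat, and replicate 2 also those of white fat, airway and liver, as described with the marker lists. Among the 24-hour arrays, which enter the fit and the first-week step, replicate 1 had an airway list mean of 5.17 beside 4.08 and 3.98. The 7-day replicates 2 and 3 are called the doubted arrays below. Counts were also taken without them, which leaves 1 array at 7 days and calls 20.8% of genes. The fit without the doubted arrays calls fewer genes in both directions, and its counts over all genes are given at the end. A smaller list count in that fit is therefore no result about the list, and the shares of the full fit are no measure for it. Values below are listed for replicates 1, 2 and 3 in that order. A difference is the 10-week minus the 7-day log2 mean, and an adjusted p is from limma's test over all genes.

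At an adjusted p under 0.05, 7165 genes differed between the ages, which is 35.9% of those tested. Of these, 3388 were higher (17%) and 3777 lower (18.9%) at 10 weeks. Centring of every array on its own median turned the split to 5247 higher and 3307 lower, so that 61.3% of the calls were higher instead of 47.3%. Quantile normalization gave 3656 higher and 3401 lower, with 51.8% of the calls higher. A difference of at least 2-fold was found for 412 genes called higher (2.07%) and 594 called lower (2.98%). At least 4-fold differences numbered 71 and 144, and at least 8-fold differences 13 and 40. The median over all genes was 0.039. In 8835 genes the 3 values of one age all lay above the 3 of the other.

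The 12 largest rises and falls among genes above the median signal held contractile, immune and metabolic genes on one side, and contractile, cell cycle, matrix and growth genes on the other. Myot, whose product myotilin sits in the Z-disc, measured 5.46, 5.12 and 5.35 on the 7-day arrays and 9.49, 10.09 and 9.89 on the 10-week arrays. Its rise was 22.9-fold. The 12 rises and 12 falls were chosen from genes whose ages do not overlap, so that separation is no result. Rpl3l, a muscle-restricted relative of ribosomal protein L3, measured 5.70, 5.35 and 5.70 on the 7-day arrays and 8.96, 8.94 and 8.70 on the 10-week arrays, a difference of 3.28 ± 0.12 (SE, adjusted p = 3.83e-08). Plaat1, a phospholipid acyltransferase gene, rose by 3.46, and Xdh, which encodes the xanthine dehydrogenase of purine breakdown, by 3.60. The poorly described transcripts 2310002L09Rik and AW112010 rose by 3.48 and 3.36. Among the falls, Tnni1, the slow skeletal troponin I of the immature heart, measured 11.18, 11.02 and 11.07 on the 7-day arrays and 4.86, 5.17 and 5.25 on the 10-week arrays. It was the largest difference of the comparison in either direction, at 63.8-fold. Kcne1, a potassium channel beta subunit, measured 9.41, 9.10 and 9.50 on the 7-day arrays and 4.28, 5.79 and 4.78 on the 10-week arrays. The 10-week arrays of Kcne1 were spread widely. Capn6, a calpain without protease activity, fell by 4.09 on the log2 scale, the spindle gene Hmmr fell by 3.82, and Ddc, the aromatic amino acid decarboxylase, fell by 3.79. Ucp1 also stands among the falls, with its high values on 7-day replicates 2 and 3.

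**Figure D1:**
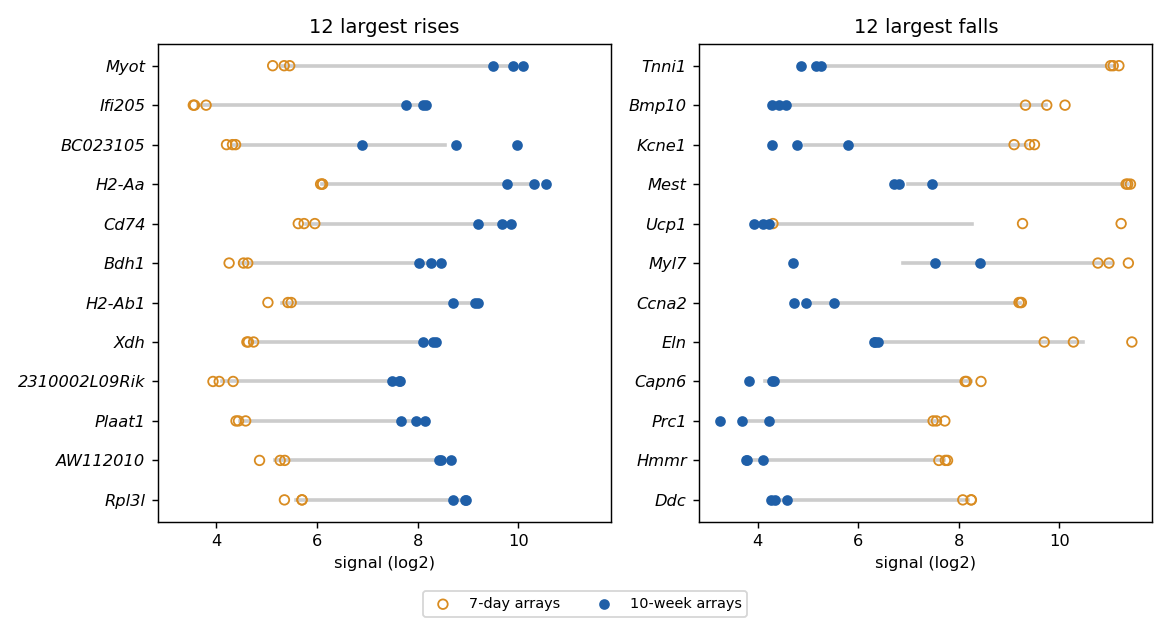
Log2 signal of the 12 genes with the largest rises and the 12 with the largest falls, with 1 point per array (open, 7-day; filled, 10-week) and a line between the means. Genes were chosen for ages that do not overlap, so their separation is no result; it is narrowest for Ucp1, whose 7-day replicate 1 measured 4.30 beside 3.92 to 4.23 at 10 weeks.

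Among contractile genes a few of the Z-disc and its adaptors rose by large factors, while several chains of the adult ventricular filaments did not pass the test. Of 24 adult sarcomere genes 11 were higher and 2 lower, with a median of 0.14, beside 17% higher and 18.9% lower over all genes. After Myot came Xirp2, an actin-binding protein of the intercalated disc, which measured 7.77, 7.86 and 7.86 on the 7-day arrays and 10.27, 10.33 and 10.72 on the 10-week arrays. Tcap, the telethonin that caps titin at the Z-disc, rose by 1.88 and Cmya5, a partner of desmin and dystrobrevin, by 1.56. Against these, the alpha myosin heavy chain gene Myh6 measured 12.64, 12.72 and 12.76 on the 7-day arrays and 12.66, 12.63 and 12.62 on the 10-week arrays. Its difference of -0.07 had a 95% interval of -0.16 to 0.02 (adjusted p = 0.207). For the cardiac troponin I gene Tnni3 the difference was 0.14 with an interval of 0.02 to 0.25 (adjusted p = 0.0645), and for the cardiac actin gene Actc1 it was -0.10 with an interval of -0.19 to -0.02 (adjusted p = 0.0648). Tnni3 passed the test with the arrays centred on their median or without 10-week replicate 3, where the difference was 0.19 and 0.17, and Actc1 passed without that array, at -0.13.

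Of 17 isoforms of the immature heart or of other muscle, 8 were lower and 2 higher. The smooth and non-muscle light chain gene Myl9 measured 10.51, 11.01 and 10.81 on the 7-day arrays and 8.44, 8.62 and 8.44 on the 10-week arrays and fell by 2.28. Acta2, the smooth muscle actin that immature heart muscle also makes, fell by 1.91. The 2 that rose were Acta1, the skeletal alpha-actin, and Myh7, the slow beta myosin heavy chain. Acta1 measured 8.46, 8.69 and 8.38 on the 7-day arrays and 10.36, 10.72 and 10.49 on the 10-week arrays, a 4.05-fold rise. Of the 12 skeletal muscle markers, Acta1 was the 1 that passed the test, and 2 passed without 10-week replicate 1 or with median centring. Myod1, which defines skeletal muscle precursors, measured 4.60, 4.46 and 4.56 on the 7-day arrays and 4.69, 4.86 and 4.60 on the 10-week arrays. The atrial light chain genes Myl7 and Myl4 differed by -4.16 and -3.15, and neither passed the test without both doubted arrays, at -3.88 and -2.94. Both are members of the atrial marker list described further on.

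Genes of the stress response of the heart moved in both directions. Of 13, 7 were higher and 5 lower. Nppb, the B-type natriuretic peptide gene, measured 10.30, 9.85 and 10.56 on the 7-day arrays and 11.28, 11.69 and 11.23 on the 10-week arrays and rose by 1.17 (adjusted p = 0.00175). Nppa, its atrial counterpart, measured 12.89, 12.94 and 13.06 on the 7-day arrays and 12.49, 12.50 and 12.57 on the 10-week arrays and fell by 0.44; without both doubted arrays its difference was -0.37 and did not pass. Clu, the secreted chaperone clusterin, rose by 1.85, and Ankrd1, a titin-binding repeat protein, by 0.49. Without those 2 arrays the number lower was 2 instead of 5.

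Calcium cycling genes moved in both directions, as did genes above the median signal, of which 2287 of 10056 were higher and 3296 lower. Of 18, 5 were higher and 6 lower with a median of -0.02, and 3 and 3 without both doubted arrays. The calcium release channel gene Ryr2 measured 10.58, 10.78 and 10.79 on the 7-day arrays and 10.67, 10.80 and 10.84 on the 10-week arrays, and its interval ran from -0.10 to 0.20 (adjusted p = 0.595). Pln, the inhibitor phospholamban of the calcium pump, measured 12.74, 12.66 and 12.75 on the 7-day arrays and 12.86, 12.74 and 12.87 on the 10-week arrays (adjusted p = 0.0913; its difference of 0.11 passed without 10-week replicate 2, at 0.15, and under median centring and quantile normalization, at 0.16 and 0.18). The pump gene Atp2a2 rose by 0.20. Hrc, whose product binds calcium inside the store, measured 8.18, 8.25 and 8.38 on the 7-day arrays and 9.73, 9.53 and 9.62 on the 10-week arrays, a 2.57-fold rise. S100a1, a calcium sensor that acts on the pump and the release channel, rose by 0.74. Sln, the pump inhibitor sarcolipin of the atrium, fell by 1.46, and the skeletal calsequestrin gene Casq1 fell by 1.22, which did not pass without both doubted arrays (-0.85).

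Ion channel subunits moved in both directions. Of 17 potassium channel subunits 6 were higher and 5 lower. Kcnip2, the beta subunit of the fast transient outward current, measured 8.44, 8.06 and 8.35 on the 7-day arrays and 9.26, 9.18 and 9.21 on the 10-week arrays, and Kcnd2, a pore subunit of that current, rose by 0.90. Kcna4, the pore subunit of the slow transient outward current, measured 5.60, 5.72 and 5.60 on the 7-day arrays and 4.44, 4.66 and 4.57 on the 10-week arrays and fell by 1.08. The silent subunit gene Kcnv2 rose by 1.07. Of 14 sodium, calcium and pacemaker channel subunits 4 were higher and 6 lower, and 8 more were not analysed here. Scn4b, a sodium channel beta subunit, measured 3.73, 3.97 and 3.81 on the 7-day arrays and 5.96, 5.97 and 5.95 on the 10-week arrays and rose 4.35-fold (adjusted p = 1.03e-07), while Scn3b measured 4.39, 4.64 and 4.39 on the 7-day arrays and 4.25, 4.37 and 4.34 on the 10-week arrays (interval -0.33 to 0.02, adjusted p = 0.154). Cacna1g, a T-type calcium channel of the immature heart and the conduction system, measured 6.72, 7.12 and 6.97 on the 7-day arrays and 5.57, 5.49 and 5.50 on the 10-week arrays and fell by 1.42. Cacna2d1, the accessory subunit of the L-type channel, rose by 0.90. Without both doubted arrays 1 of the 14 was lower instead of 6. The pacemaker channel gene Hcn4 differed by -0.40 (adjusted p = 0.0721), and by -0.59 without 7-day replicate 1, where it passed.

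Among 20 genes of the intercalated disc and the T-tubules, 4 were higher and 7 lower, beside 17% and 18.9% over all genes. All 20 lay above the median signal, where 2287 of 10056 genes were higher and 3296 lower. Their counts are near those shares and no result about the list. Gja5, the connexin of atrium and conduction system, fell by 1.73, and Cav3, the muscle caveolin, fell by 0.88. Jph1, a junctophilin that ties T-tubules to the calcium store, rose by 1.15, and Sgca, alpha-sarcoglycan, by 1.08. Of 16 hormone and transmitter receptors 6 were higher and 5 lower; the number lower was 3 without 7-day replicate 3 and 3 without both doubted arrays. Thrb, a thyroid hormone receptor, measured 4.94, 5.37 and 5.29 on the 7-day arrays and 6.44, 6.26 and 6.50 on the 10-week arrays and rose by 1.20. Agtr1a, an angiotensin II receptor, and Nr3c2, the mineralocorticoid receptor, each rose by 0.69, the muscarinic receptor gene Chrm2 rose by 0.57, and the endothelin receptor gene Ednrb fell by 1.12. The alpha-adrenergic receptor gene Adra1b did not pass (interval -0.29 to 0.07, adjusted p = 0.326). Of 20 cardiac transcription factors 7 were lower and 1 higher, and the number lower is near the share of genes above the median signal. The number higher was 0 without 7-day replicate 2, 7-day replicate 3 or 10-week replicate 2 or without both doubted arrays, 2 with quantile normalization and 3 with median centring. Tbx20 measured 11.10, 11.34 and 11.25 on the 7-day arrays and 10.04, 10.001 and 10.31 on the 10-week arrays and fell by 1.11, Gata6 fell by 0.97, and Hey2, the Notch-responsive factor of ventricular muscle, fell by 1.49.

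Of the energy lists, that of the oxidation of ketone bodies and branched-chain amino acids held the largest share of genes that rose. Of its 20 tested members 17 were higher, 12 of them at least 2-fold, and 1 was lower, with a median of 1.16 against 0.039 over all genes. Without both doubted arrays 17 were again higher, with a median of 1.26. Bdh1, which turns the ketone body hydroxybutyrate into acetoacetate, measured 4.62, 4.54 and 4.25 on the 7-day arrays and 8.47, 8.27 and 8.02 on the 10-week arrays, a 13.7-fold rise. Oxct1, which activates acetoacetate for burning, measured 9.81, 9.73 and 9.94 on the 7-day arrays and 11.20, 11.16 and 11.28 on the 10-week arrays and rose 2.62-fold (adjusted p = 1.5e-07). Bdh1 and Oxct1 were each higher in every 10-week array than in any 7-day array. The ages did not overlap for 8835 of the 19938 genes tested, so such separation is common here.

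Along the branched-chain amino acid route, leucine, isoleucine and valine are first stripped of nitrogen, then decarboxylated by the mitochondrial dehydrogenase complex BCKDH, and then split in separate arms. At the first step Bcat2, the mitochondrial transaminase, measured 6.98, 7.003 and 7.02 on the 7-day arrays and 8.29, 8.27 and 8.04 on the 10-week arrays and rose by 1.20. Bcat1, its cytosolic relative, measured 4.81, 5.24 and 4.85 on the 7-day arrays and 4.62, 4.79 and 4.33 on the 10-week arrays and fell by 0.39 (adjusted p = 0.0433). That fall did not pass when any 1 of the 24-hour arrays, 7-day replicate 2 or 3, or 10-week replicate 1 or 3 was left out (-0.44 to -0.25), nor without both doubted arrays (-0.23). At the second step Bckdha, a subunit of BCKDH, measured 7.83, 8.02 and 7.87 on the 7-day arrays and 9.78, 9.63 and 9.46 on the 10-week arrays and rose 3.28-fold. The other subunits of its core, Bckdhb and Dbt, rose by 1.12 and 1.05. They, Bckdk and the 6 enzymes after Ivd were named after their values were seen, to give more of the route. Ppm1k, the phosphatase that switches BCKDH on, measured 7.51, 7.33 and 7.35 on the 7-day arrays and 9.08, 8.84 and 9.05 on the 10-week arrays and rose by 1.59, while Bckdk, the kinase that switches it off, had an interval of -0.02 to 0.28 (adjusted p = 0.158). In the leucine arm Ivd, isovaleryl-CoA dehydrogenase, measured 8.09, 8.21 and 8.38 on the 7-day arrays and 10.23, 9.95 and 10.05 on the 10-week arrays, a 3.61-fold rise. Of the next enzymes of that arm, Mccc1 and Mccc2 rose by 0.92 and 1.23 and Auh by 1.37. In the valine arm Hibch rose by 0.47, Hibadh by 0.68 and Aldh6a1 by 1.30. No step particular to the isoleucine arm is named here. The list members Acat1, Pcca, Pccb and Mmut are not described. Of the 20 members 2 did not pass the test, Bckdk among them.

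Respiratory chain genes moved mostly by less than 2-fold. Of 30 complex I subunits 20 were higher and none lower, none of them 2-fold, with a median of 0.23. This count was 13 without 7-day replicate 2, 12 without 10-week replicate 1 and 6 without both doubted arrays. Ndufb3 measured 7.73, 7.54 and 7.57 on the 7-day arrays and 8.47, 8.35 and 8.26 on the 10-week arrays, a difference of 0.74 ± 0.10. Of 35 genes of complexes II to V 11 were higher and 2 lower, and 4 and 2 without both doubted arrays. Some subunits of cytochrome c oxidase come in a form of heart and muscle and a form of most tissues. In the first pair the muscle form Cox7a1 measured 11.24, 11.16 and 11.24 on the 7-day arrays and 12.37, 12.29 and 12.07 on the 10-week arrays and rose by 1.03, and Cox7a2 did not pass (interval -0.41 to 0.08, adjusted p = 0.286). In the second pair Cox6a1, of most tissues, measured 10.86, 11.19 and 10.95 on the 7-day arrays and 9.97, 9.95 and 9.83 on the 10-week arrays and fell by 1.08. Its partner of heart and muscle, Cox6a2, rose by 0.27, a call lost without 10-week replicate 1 (0.23) or without both doubted arrays (0.23). In the third pair Cox8b, of heart and muscle, rose by 0.50 (0.39 and not past the test without both doubted arrays), and Cox8a fell by 0.55. Among 28 genes of the mitochondrial ribosome and import 10 were higher and 2 lower; the number higher was 6 without 7-day replicate 2 and 4 without both doubted arrays, and 1 was lower without 7-day replicate 1, 7-day replicate 3 or 10-week replicate 3.

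Fatty acid genes moved in both directions, more often up. Of 28, 15 were higher and 6 lower, with a median of 0.28. Lpl, the lipase that frees fatty acids from blood lipoproteins, measured 11.004, 11.05 and 11.13 on the 7-day arrays and 12.03, 11.94 and 12.13 on the 10-week arrays and rose by 0.97. Acsl6, an acyl-CoA synthetase, rose by 1.34 from a signal below the median of all genes. Cpt1a, the carnitine palmitoyltransferase form of liver and immature heart, measured 8.51, 8.64 and 8.51 on the 7-day arrays and 7.65, 7.49 and 7.47 on the 10-week arrays and fell by 1.02. The muscle form Cpt1b was not analysed here.

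At the entry of pyruvate into the TCA cycle 2 kinases that shut the pyruvate dehydrogenase fell and 2 rose. Pdk3 measured 6.97, 6.96 and 6.96 on the 7-day arrays and 4.66, 4.75 and 4.81 on the 10-week arrays and fell by 2.22 (adjusted p = 1.14e-08). Pdk4, the kinase tied to fasting and fat burning, measured 10.11, 10.26 and 10.39 on the 7-day arrays and 9.23, 9.25 and 9.33 on the 10-week arrays and fell by 0.98. Pdk2 measured 9.93, 9.91 and 9.92 on the 7-day arrays and 10.83, 10.81 and 10.77 on the 10-week arrays and rose by 0.88, and Pdk1 rose by 0.50. For each of the 4 genes the ages did not overlap, which also held for 8835 of the 19938 genes tested. Mpc1, a subunit of the mitochondrial pyruvate carrier, rose by 0.83. Of all 23 genes in this list 12 were higher and 2 lower, and 7 were higher without both doubted arrays.

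Of 24 glucose transport and glycolysis genes 10 were higher and 4 lower; without both doubted arrays 1 was lower. Slc2a4, the insulin-responsive glucose transporter GLUT4, measured 8.28, 8.35 and 8.40 on the 7-day arrays and 9.70, 9.82 and 9.73 on the 10-week arrays, a 2.65-fold rise. Hk2, the muscle hexokinase, measured 7.99, 7.99 and 7.99 on the 7-day arrays and 9.44, 9.35 and 9.34 on the 10-week arrays. Pfkfb2, the heart enzyme that makes the activator of phosphofructokinase, measured 7.05, 6.96 and 7.06 on the 7-day arrays and 8.99 to 9.04 on the 10-week arrays and rose 3.96-fold. Hk1, the hexokinase of most tissues, did not pass (interval -0.15 to 0.09, adjusted p = 0.681). The lactate dehydrogenase chains moved apart, with Ldhb higher by 0.45 and Ldha lower by 0.36; the fall of Ldha was not past the test without both doubted arrays (-0.32).

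Of 13 creatine and energy transfer genes 6 were higher and 3 lower. Ckmt2, the mitochondrial creatine kinase of striated muscle, measured 10.48, 10.16 and 10.57 on the 7-day arrays and 11.58, 11.83 and 11.50 on the 10-week arrays and rose by 1.24, the creatine transporter gene Slc6a8 rose by 0.77, and Ckb, the brain form, fell by 0.81. Ckm, the muscle form, had an interval of -0.003 to 0.29 (adjusted p = 0.12); it passed without 10-week replicate 3 (0.21) and with median centring (0.20).

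**Figure D2:**
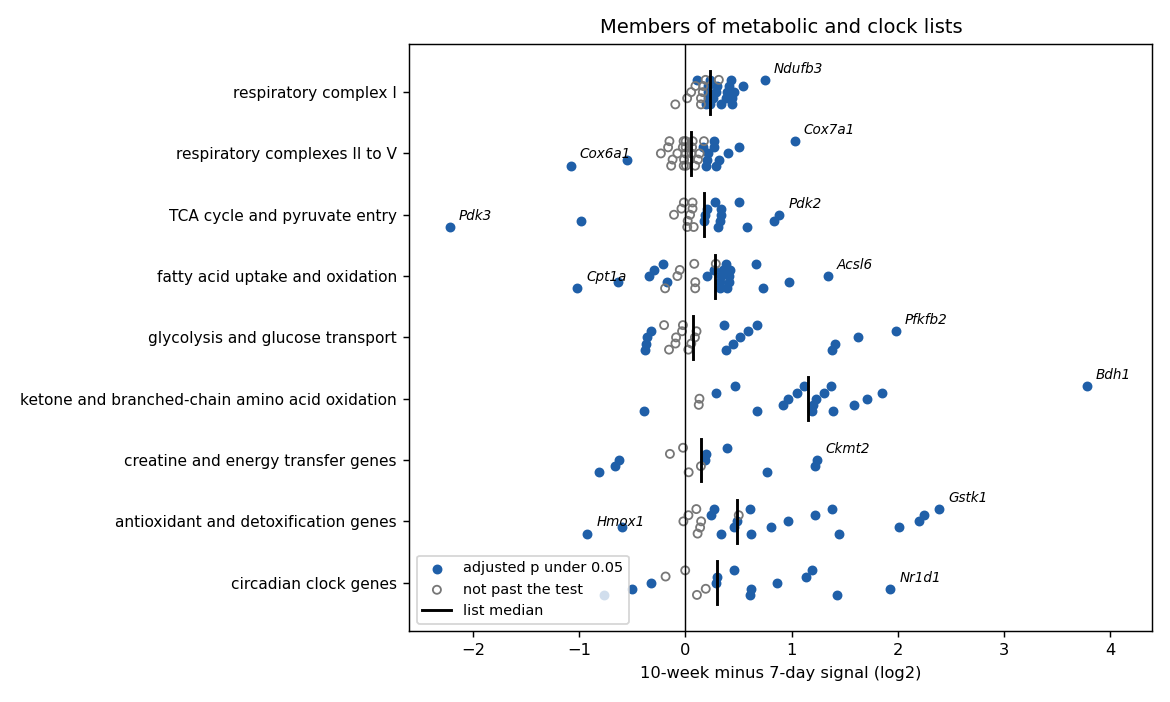
Differences between 10-week and 7-day signal (log2) for every tested member of 9 metabolic and clock lists, with 1 point per gene (filled, adjusted p under 0.05) and a bar at the list median. The ketone and branched-chain amino acid list lies farthest to the right, with a median of 1.16, and complex I forms a narrow group around 0.23.

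Regulators of metabolism were higher in 12 of 20 cases and lower in 3 (1 without both doubted arrays). Klf15, a factor that controls amino acid and lipid use, measured 6.57, 6.26 and 6.46 on the 7-day arrays and 7.81, 8.18 and 7.78 on the 10-week arrays and rose by 1.49, and its relative Klf9, a target of glucocorticoid and thyroid hormone, rose by 1.18. Rxrg, a retinoid X receptor, rose by 1.62. Esrrg and Ppara, nuclear receptors of mitochondrial and fatty acid genes, rose by 0.72 and 0.55. The coactivator gene Ppargc1b measured 7.49, 7.42 and 7.50 on the 7-day arrays and 6.71, 6.89 and 7.09 on the 10-week arrays and fell by 0.58.

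Of 25 antioxidant and detoxification genes 16 were higher, 7 of them at least 2-fold, and 2 were lower, and the same counts of 16 and 2 were found without both doubted arrays. The list median was 0.48. The rises of over 4-fold were those of glutathione transferases and a quinone reductase. Gstk1, the transferase of mitochondria and peroxisomes, measured 7.91, 7.76 and 7.95 on the 7-day arrays and 10.35, 10.36 and 10.08 on the 10-week arrays, a 5.24-fold rise. Gstm1 measured 8.03, 8.30 and 8.32 on the 7-day arrays and 10.49, 10.31 and 10.58 on the 10-week arrays, and Gsta3 rose by 2.20. Nqo1 measured 6.61, 6.36 and 6.62 on the 7-day arrays and 8.59, 8.24 and 8.79 on the 10-week arrays and rose by 2.01. Promoters were searched for the core of the antioxidant response element, TGACNNNGC on either strand, in the 250 bases before each RefSeq start (GRCm38.p6). It was present for 6 of 20 list members with a promoter entry (30.0%) and for 12.5% of 15614 genes. The window of Gsta3 is shown as the member with the largest rise that holds it within 150 bases of the start, with the match in capitals.
Gsta3, chr1:21240435-21240584, plus strand: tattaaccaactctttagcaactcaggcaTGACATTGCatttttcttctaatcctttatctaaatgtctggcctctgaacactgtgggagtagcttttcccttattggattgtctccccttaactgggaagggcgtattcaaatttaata
A match is a description of the sequence and does not show that a factor is bound.

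Circadian clock genes were higher in 10 of 17 cases and lower in 3, with a median of 0.29. The day-night cycle of these transcripts is large in many tissues, and the labels give no time of death, so age and time of day cannot be told apart here. Nr1d1, the repressor REV-ERB alpha, measured 7.79, 7.96 and 7.84 on the 7-day arrays and 9.82, 9.59 and 9.96 on the 10-week arrays and rose by 1.93. Dbp, an output factor that peaks with the E-box genes, measured 7.93, 7.88 and 7.84 on the 7-day arrays and 9.18, 9.06 and 8.99 on the 10-week arrays, and Ciart, a repressor of the clock, rose by 1.43. Bhlhe41 rose by 1.14. Per3 fell by 0.32, which did not pass without both doubted arrays (-0.27), and Per2 did not pass (interval -0.03 to 0.41, adjusted p = 0.157). The E-box CACGTG, to which the clock activators bind, was present before the start of 5 of 15 clock genes (33.3%) and of 8.1% of all genes with a promoter entry. The window of Ciart is shown because it holds 3 matches, in capitals.
Ciart, chr3:95882229-95882378, minus strand: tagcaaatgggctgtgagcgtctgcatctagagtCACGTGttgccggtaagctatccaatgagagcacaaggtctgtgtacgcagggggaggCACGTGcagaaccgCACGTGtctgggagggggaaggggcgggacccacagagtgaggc

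Cell cycle genes fell almost without exception. Of 29 mitosis genes 28 were lower, 26 of them at least 2-fold, with a median of -2.37. All 11 cytokinesis genes were lower (median -1.78), as were 28 of 29 DNA replication genes (-1.07), 17 of 18 histone and chromatin assembly genes (-1.47) and 15 of 16 G1 cyclin and E2F genes (-0.70). Anln, the anillin that organises the contractile ring, measured 7.998, 7.998 and 8.04 on the 7-day arrays and 4.31, 5.01 and 4.67 on the 10-week arrays, a 10.2-fold fall. Ect2, which activates RhoA at the division plane, fell by 3.31. Cyclin-dependent kinase 2, encoded by Cdk2, measured 8.39, 8.27 and 8.46 on the 7-day arrays and 6.08, 6.20 and 6.10 on the 10-week arrays and fell by 2.25; Cdk6 fell by 1.72. The condensin gene Ncaph fell by 2.82 and the chromatin remodeller Hells fell by 2.26. Ccnd1, the cyclin D1 gene, was the 1 member of its list that did not pass (interval -0.57 to -0.02, adjusted p = 0.0913); it passed without 10-week replicate 2, at -0.41. Of 15 cell cycle inhibitors 4 were higher and 8 lower, and 5 lower without both doubted arrays. Gadd45a, a growth arrest gene, rose by 1.05, Rbl1, a pocket protein, fell by 1.31, and Cdkn2c fell by 0.81. Within the 10-week arrays the mitosis signal was highest on replicate 2, where Mki67 measured 6.36 beside 5.41 and 5.54 and the list mean of mitosis genes was 4.97 beside 4.70 and 4.79.

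Many mitosis genes carry a CHR element, TTTGAA, together with CCAAT boxes, through which the DREAM and MuvB complexes and NF-Y act. Both were searched on either strand in the 250 bases before each RefSeq start (GRCm38.p6). TTTGAA was found for 9 of 23 mitosis genes with a promoter entry (39.1%) and for 15.7% of all genes, and CCAAT for 19 of 23 (82.6%) and 38.8%. Among 24 replication genes the E2F site TTTGGCGC was found for 3 (12.5%), against 0.7% of all genes, and among 16 chromatin assembly genes for 1 (6.2%). TTTGAA was found for 4 of 11 cytokinesis genes (36.4%) and CCAAT for 6 (54.5%). The element of the ERR receptors, TCAAGGTCA, was found for 0 of 27 complex I genes, 1 of 26 genes of complexes II to V, 1 of 24 fatty acid genes and 0 of 21 TCA cycle genes, against 0.3% of all genes. The E-box CACGTG was found for 0 of 18 ribosome biogenesis genes, against 8.1%, and the D-box TTATGTAA for 1 of 15 clock genes (6.7%), against 0.9%. The 150 bases before the start of Prc1, Mki67 and Top2a are shown, with both elements in capitals. These genes had the largest falls among mitosis genes whose window was written out and holds both elements. Not every called mitosis gene had its window written out.
Prc1, chr7:80294326-80294475, plus strand: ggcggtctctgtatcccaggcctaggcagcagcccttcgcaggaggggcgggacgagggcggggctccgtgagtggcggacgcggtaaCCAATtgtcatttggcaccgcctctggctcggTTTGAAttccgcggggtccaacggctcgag
Mki67, chr7:135716380-135716529, minus strand: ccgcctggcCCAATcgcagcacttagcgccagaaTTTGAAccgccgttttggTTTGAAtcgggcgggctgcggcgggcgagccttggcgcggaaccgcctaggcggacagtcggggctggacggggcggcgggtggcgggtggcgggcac
Top2a, chr11:99024190-99024339, minus strand: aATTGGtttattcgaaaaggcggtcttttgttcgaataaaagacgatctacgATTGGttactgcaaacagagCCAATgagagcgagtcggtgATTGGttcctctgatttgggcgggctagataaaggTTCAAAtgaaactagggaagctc
Prc1 has a second, overlapping entry, whose 150 bases hold CCAAT but no whole TTTGAA. In the lines above TTTGAA or its reverse complement TTCAAA lies nearest the start in Prc1 and Top2a, and Mki67 holds it at 2 places. These genes fell by 3.86, 3.58 and 3.56.

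Of 17 imprinted growth genes 14 were lower and none higher. Mest measured 11.36, 11.41 and 11.33 on the 7-day arrays and 6.81, 7.46 and 6.70 on the 10-week arrays, a 20.8-fold fall. Igf2 fell by 3.48 and Plagl1, a zinc finger factor of the same network, by 3.36. Slc38a4, an amino acid transporter that is imprinted too, measured 9.48, 9.47 and 9.49 on the 7-day arrays and 5.63, 5.81 and 6.18 on the 10-week arrays. Within the amino acid transporters 6 of 17 were lower and 1 higher (2 without 7-day replicate 2 and 3 without both doubted arrays), and members of the SNAT family moved in both directions. Slc38a1 and Slc38a2 fell by 2.48 and 1.12, while Slc38a3 measured 6.47, 6.28 and 6.47 on the 7-day arrays and 8.12, 8.16 and 8.34 on the 10-week arrays and rose by 1.80. Of 22 IGF, neuregulin and FGF genes 11 were lower and 3 higher. Igf1 measured 8.46, 8.83 and 8.46 on the 7-day arrays and 7.28, 7.46 and 7.43 on the 10-week arrays and fell by 1.19, the neuregulin receptor gene Erbb4 fell by 1.16, and Fgf2 rose by 1.04. The ligand gene Nrg1 did not pass (interval -0.03 to 0.39, adjusted p = 0.165). Of 8 oncofetal genes 3 were lower and none higher, and 1 was lower with genes of low signal left out. Igf2bp3 fell by 1.28, while Hmga2 and Lin28b had intervals of -0.04 to 0.21 and -0.09 to 0.17 (adjusted p = 0.284 and 0.62).

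Developmental signalling genes were lower more often than higher, as were genes above the median signal, with 3296 of 10056 lower and 2287 higher. Axon guidance genes, which also steer vessels and nerves in the heart, were lower in 16 of 24 cases and higher in none. Sema5a measured 7.20, 7.59 and 7.28 on the 7-day arrays and 5.55, 5.55 and 5.62 on the 10-week arrays and fell by 1.78, Sema3c fell by 1.26 and Sema3a by 1.26. Of 24 Wnt and Notch genes 12 were lower and 2 higher; the number higher was 1 without 7-day replicate 1 or 3 or 10-week replicate 2 or 3, and 7 were lower without both doubted arrays. Sfrp2, a secreted Wnt modulator, measured 9.26, 10.37 and 9.27 on the 7-day arrays and 6.75, 7.53 and 7.60 on the 10-week arrays, and its 7-day replicate 2 stood above the other arrays of that age. Of 23 BMP and TGF-beta genes 10 were lower and 1 higher. Bmp10, the growth factor of atrial muscle, measured 9.32, 9.75 and 10.11 on the 7-day arrays and 4.42, 4.57 and 4.29 on the 10-week arrays, and Inhba fell by 1.05. Of 18 Hippo pathway genes and YAP targets 10 were lower and 4 higher, but 2 and 2 without both doubted arrays, and the number higher was 2 without 10-week replicate 2. Tead2, a partner of YAP in embryonic tissue, measured 7.24, 7.20 and 7.20 on the 7-day arrays and 6.14, 6.02 and 5.83 on the 10-week arrays and fell by 1.22.

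Genes of RNA and protein handling were lower more often than higher. So were genes above the median signal, with 3296 of 10056 lower and 2287 higher, and most members of these lists lie above it. Splicing regulators were lower in 9 of 18 cases and higher in 2, and these 2 counts were the same without both doubted arrays. Ptbp1, a repressor of muscle exons, measured 8.88, 9.02 and 8.89 on the 7-day arrays and 8.15, 8.25 and 8.14 on the 10-week arrays and fell by 0.75, Mbnl3 fell by 1.05, and Rbfox1 rose by 0.55. Rbm20, the titin splicing factor, did not pass (interval -0.23 to 0.01, adjusted p = 0.161). Of 22 ribosome biogenesis genes 10 were lower and 3 higher, with a median of -0.13. The number lower was 6 with quantile normalization and 4 without both doubted arrays. Of 19 genes of the endoplasmic reticulum and its stress response 10 were lower and 3 higher, with Creb3l1, a collagen secretion factor, lower by 1.09, Sec61a1 lower by 0.96 and Herpud1 higher by 0.88.

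Most extracellular matrix genes of these lists fell, fibre chains and processing enzymes among them. Of 23 collagen chains 16 were lower, 14 of them at least 2-fold, and 1 was higher, with a median of -1.14. Col1a1 measured 10.19, 10.89 and 10.49 on the 7-day arrays and 7.24, 7.57 and 7.70 on the 10-week arrays and Col3a1 fell by 2.90. The 1 that rose was Col8a1, a short-chain collagen of vessel walls, which measured 5.86, 6.29 and 5.84 on the 7-day arrays and 7.31, 7.46 and 7.56 on the 10-week arrays (named after its values were seen). Of 19 collagen processing genes 13 were lower and 4 higher. Lox, the collagen and elastin crosslinker, measured 7.36, 8.68 and 7.65 on the 7-day arrays and 4.51, 4.56 and 4.81 on the 10-week arrays, the prolyl hydroxylase gene P4ha3 fell by 2.49, and Serpinh1, the collagen chaperone, fell by 1.23. Of the elastic fibre, proteoglycan and matricellular genes 19 of 27 were lower and 2 higher. Mfap2, a microfibril protein, fell by 2.56 and Tnc, the tenascin of developing tissue, by 3.26. The proteoglycan gene Dcn did not pass and measured 12.22, 12.37 and 12.30 on the 7-day arrays and 12.32, 12.21 and 12.46 on the 10-week arrays (interval -0.16 to 0.22, adjusted p = 0.785). The 2 that rose were the small proteoglycan genes Ogn and Prelp, by 0.21 and 0.71 (named after their values were seen), and 1 rose without both doubted arrays. All 22 laminin, nidogen and integrin genes were called, 16 lower and 6 higher. The laminin chains of the basement membrane Lamb1 and Lamc1 fell by 1.45 and 1.42. Among proteases and inhibitors 13 of 19 were lower and 3 higher. Mmp14, the membrane collagenase, measured 9.03, 9.35 and 9.07 on the 7-day arrays and 6.89, 6.65 and 6.99 on the 10-week arrays, and Timp4, a metalloproteinase inhibitor rich in the heart, measured 5.67, 5.12 and 5.19 on the 7-day arrays and 7.79, 8.21 and 7.85 on the 10-week arrays. The inhibitor rose 6.15-fold while the protease fell 4.94-fold.

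**Figure D3:**
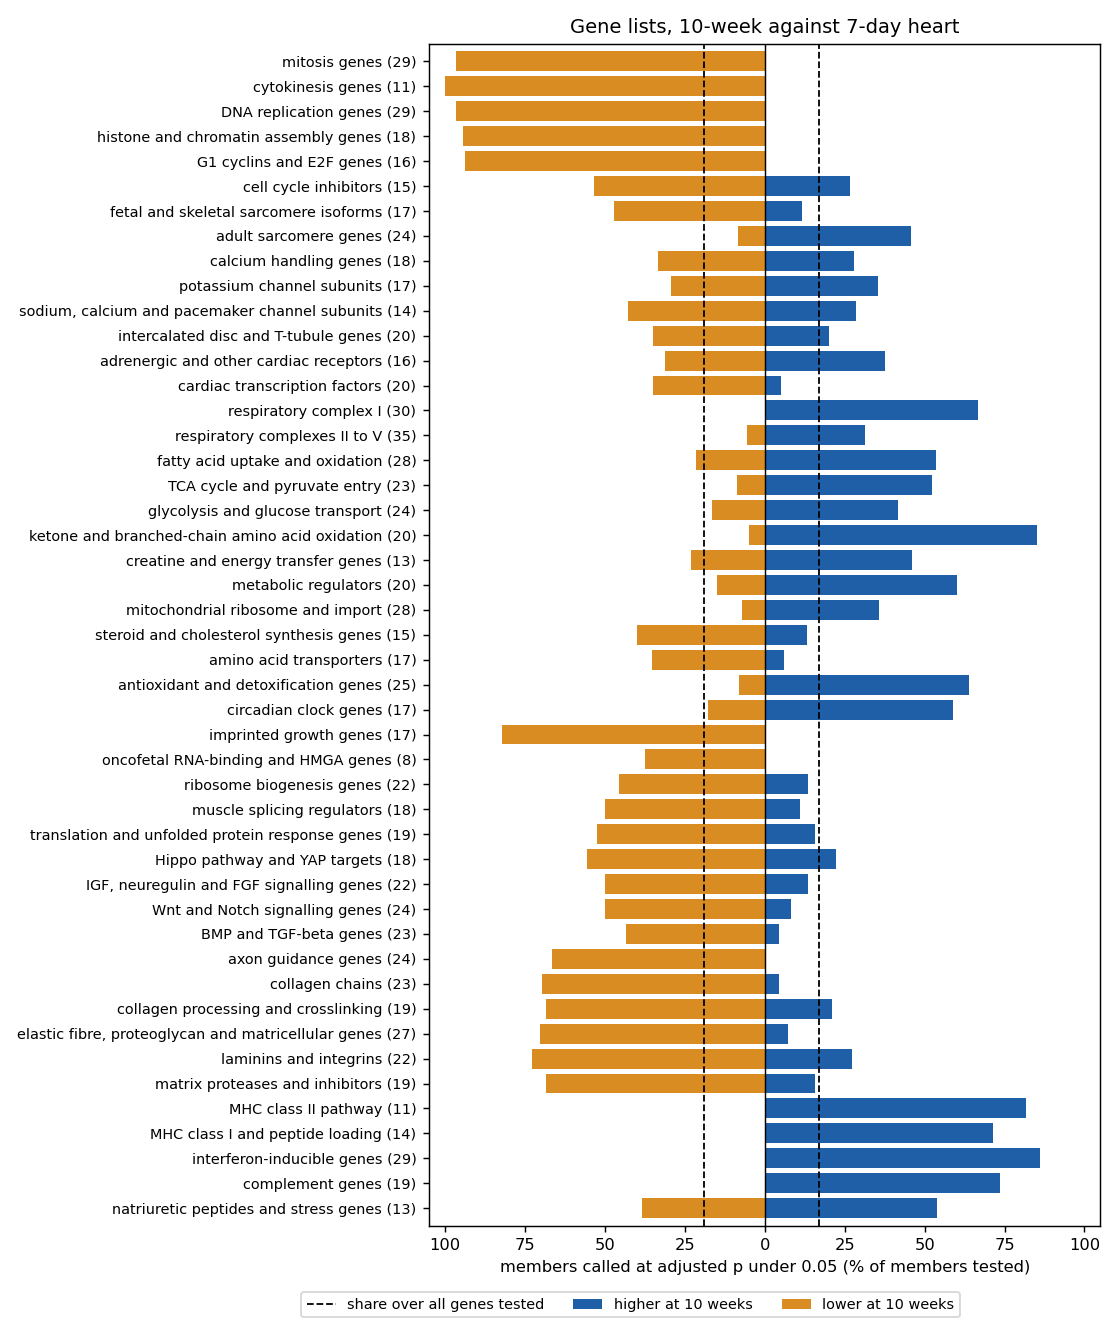
Share of tested members (%) called higher (right, blue) and lower (left, orange) at 10 weeks in each gene list, with the number tested in brackets and dashed lines at the share over all genes (17% and 18.9%). Cell cycle, imprinted and matrix lists extend to the left, and immune, ketone and antioxidant lists to the right. The lists were chosen with earlier results of these data known, so the shares are a description.

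Most genes of antigen presentation and of the interferon response rose. Of 11 MHC class II pathway genes 9 were higher and none lower, and of 29 interferon-inducible genes 25 were higher, 13 of them at least 2-fold, and none lower. Without both doubted arrays the counts were 9 and 18. H2-Aa, a class II alpha chain, measured 6.07, 6.11 and 6.10 on the 7-day arrays and 10.31, 9.79 and 10.55 on the 10-week arrays, and its partner H2-Ab1 measured 5.42, 5.49 and 5.02 on the 7-day arrays and 9.13, 8.71 and 9.20 on the 10-week arrays. H2-Eb1 rose by 2.76. Ciita, the master coactivator of these genes, measured 4.20, 4.04 and 4.09 on the 7-day arrays and 4.62, 4.75 and 4.70 on the 10-week arrays and rose by 0.58 from a signal below the median of all genes. With genes of low signal left out, 5 class II genes were called higher. Of 14 class I and peptide loading genes 10 were higher and none lower. B2m, the invariant chain of class I, measured 11.13, 11.15 and 11.17 on the 7-day arrays and 12.23, 11.94 and 12.49 on the 10-week arrays, the immunoproteasome subunit gene Psmb8 rose by 1.41, and the class I coactivator gene Nlrc5 did not pass (interval -0.07 to 0.40, adjusted p = 0.266), but passed as the mean of its features, at 0.53. On H2-Aa and B2m 10-week replicate 2 was the lowest of its age, with H2-Aa at 9.79 beside 10.31 and 10.55, and B2m at 11.94 beside 12.23 and 12.49.

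Interferon genes are switched on through a response element, the ISRE, whose core was searched as GAAANNGAA on either strand of the same 250 bases. It was found for 11 of 21 interferon-inducible genes with a promoter entry (52.4%), for 2 of 11 class I genes (18.2%) and for 8.0% of all genes. Windows were not written out for every called member. Among those written out, the 3 interferon-inducible genes with the largest rises are shown, with the core in capitals.
Ifi205, chr1:174031756-174031905, minus strand: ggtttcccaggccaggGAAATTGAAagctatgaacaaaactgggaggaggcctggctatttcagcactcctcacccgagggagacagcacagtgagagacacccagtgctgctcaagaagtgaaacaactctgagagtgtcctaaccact
Ifit1, chr19:34640739-34640888, plus strand: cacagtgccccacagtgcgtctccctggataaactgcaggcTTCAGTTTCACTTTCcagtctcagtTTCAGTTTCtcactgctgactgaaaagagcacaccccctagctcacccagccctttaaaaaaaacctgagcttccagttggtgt
Ifit3, chr19:34583379-34583528, plus strand: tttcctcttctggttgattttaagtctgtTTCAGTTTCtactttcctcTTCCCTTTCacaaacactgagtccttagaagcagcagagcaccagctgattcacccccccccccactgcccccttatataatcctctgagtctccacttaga
Ifit1 and Ifit3, antiviral RNA-binding proteins, hold the core at 3 and 2 places, with overlapping matches in Ifit1, and Ifi205, a DNA-sensing family member, at 1. Ifit1 measured 4.16, 4.52 and 4.63 on the 7-day arrays and 7.33, 6.92 and 7.68 on the 10-week arrays and Ifit3 rose by 2.65. Irf7, the factor that amplifies the response, measured 5.005, 5.01 and 5.32 on the 7-day arrays and 6.91, 6.51 and 7.16 on the 10-week arrays, a 3.36-fold rise. For class II genes the CCAAT box, part of their conserved promoter module, was found for 6 of 7 genes with an entry (85.7%), against 38.8% of all genes. The windows of H2-Aa and H2-Eb1 show it or its reverse complement ATTGG in capitals.
H2-Aa, chr17:34287824-34287973, minus strand: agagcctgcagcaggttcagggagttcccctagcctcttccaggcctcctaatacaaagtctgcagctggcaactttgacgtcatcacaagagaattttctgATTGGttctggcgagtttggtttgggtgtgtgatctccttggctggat
H2-Eb1, chr17:34305717-34305866, plus strand: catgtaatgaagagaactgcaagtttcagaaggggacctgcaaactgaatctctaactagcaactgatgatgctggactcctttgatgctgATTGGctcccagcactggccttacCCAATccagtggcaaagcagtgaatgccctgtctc

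Complement genes were higher in 14 of 19 cases and lower in none (1 without 10-week replicate 3). C7, of the membrane attack complex, measured 4.37, 4.22 and 4.38 on the 7-day arrays and 6.02, 6.45 and 6.75 on the 10-week arrays, and C4b, of the classical pathway, rose by 1.66. C1qa and C1qc, made by tissue macrophages, rose by 1.02 and 1.20.

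Markers of other cell types moved with these groups. In bulk tissue a change in the number of cells of a type and a change in RNA per cell cannot be told apart. The summed level of the macrophage list, as the mean of its 17 genes, was 6.22 to 6.38 on the 7-day arrays and 7.08 to 7.24 on the 10-week arrays. Of its genes 14 were higher and 1 lower (0 without 7-day replicate 3 or without both doubted arrays). Folr2, which marks resident macrophages, measured 5.73, 5.97 and 5.97 on the 7-day arrays and 8.16, 8.17 and 7.70 on the 10-week arrays. Lyz2, the lysozyme of myeloid cells, measured 8.36, 8.51 and 8.25 on the 7-day arrays and 10.21, 10.19 and 10.18 on the 10-week arrays. Ccr2, of monocyte-derived cells, rose by 1.07, while Timd4, of self-renewing resident cells, had a difference of 0.47 (adjusted p = 0.0522; past the test without 24-hour replicate 1, at 0.47, without 10-week replicate 1, at 0.60, and with median centring, at 0.53). Of the dendritic cell markers 5 of 10 were higher, of the T cell markers 3 of 10 and of the B cell markers 0 of 9 (1 without 10-week replicate 3), and no T cell or B cell marker lay above the median of all genes at either age. The B cell gene Cd79a measured 3.27, 3.46 and 3.51 on the 7-day arrays and 3.27, 3.19 and 3.27 on the 10-week arrays. Without both doubted arrays 3 dendritic cell markers were higher. The counts for dendritic and T cells also moved with the processing, to 9 and 5 with median centring and to 1 and 0 with genes of low signal left out. The part of immune cells in the rise of the class II and interferon genes was not tested.

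Of 10 cardiomyocyte markers 1 was higher, Mybpc3 by 0.35, and none lower; without 10-week replicate 3, and with genes of low signal left out, 2 were higher and 1 lower, and with median centring 2 were higher. The list mean was 12.05 to 12.09 at 10 weeks and at most 12.07 at 7 days. Fibroblast markers were lower in 10 of 16 cases and higher in 2, with a list mean of 9.34 to 9.60 at 7 days and 8.60 to 8.77 at 10 weeks, beside the fall of collagen genes, some of which the list holds. The part of fibroblasts in that fall was not tested. Fstl1 fell by 2.38, and Gsn, gelsolin, measured 9.01, 9.39 and 9.30 on the 7-day arrays and 10.85, 10.82 and 10.95 on the 10-week arrays and rose. Of 12 epicardial and mesothelial markers 9 were lower and none higher. Aldh1a2, the retinoic acid enzyme of the epicardium, measured 8.73, 8.50 and 8.74 on the 7-day arrays and 6.47, 6.43 and 6.69 on the 10-week arrays, a 4.37-fold fall, and Tcf21 fell by 1.55. Of 8 erythroid markers 4 were lower. The transferrin receptor gene Tfrc, which dividing cells also need, measured 9.51, 9.23 and 9.38 on the 7-day arrays and 7.18, 7.07 and 7.17 on the 10-week arrays, and Alas2, the haem enzyme of red cell precursors, measured 8.54, 8.64 and 9.07 on the 7-day arrays and 4.56, 7.12 and 4.25 on the 10-week arrays, with 10-week replicate 2 apart; its call was lost without both doubted arrays (-3.22).

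Of 17 endothelial markers 8 were lower and 4 higher, and the list mean was at most 9.03 at 7 days and 8.82 to 8.87 at 10 weeks. Aplnr, the apelin receptor of growing vessels, measured 8.97, 8.79 and 8.67 on the 7-day arrays and 7.34, 7.47 and 7.59 on the 10-week arrays and fell by 1.35, and Cd34 fell by 0.94. Flt1, a VEGF receptor, measured 7.87, 7.77 and 7.97 on the 7-day arrays and 8.59, 8.74 and 8.85 on the 10-week arrays and rose by 0.86, and Vwf rose by 0.70. Of 13 smooth muscle and pericyte markers 5 were lower and 3 higher, and 3 and 3 without both doubted arrays. All 13 lay above the median signal, where 3296 of 10056 genes were lower and 2287 higher, so their counts are no result about the list. Mcam fell by 1.33.

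Atrial markers and markers of fat divided the arrays within an age. Of 12 atrial markers 10 were lower and none higher, but 3 were lower without both doubted arrays. Their mean was 8.98, 9.46 and 9.19 on the 7-day arrays and 6.76, 7.72 and 7.47 on the 10-week arrays. Myl7, the atrial regulatory light chain, measured 10.76, 11.37 and 10.98 on the 7-day arrays and 4.70, 8.43 and 7.52 on the 10-week arrays. Among the 10-week arrays of Myl7 replicate 1 lay far below the other 2. Whether atria were dissected alike at both ages is not stated in the labels, and the share of atrium and the age cannot be told apart. Bmp10, Sln, Myl4, Myl7 and Nppa are members of the list, so the limit covers their falls. It also covers the fall of Gja5, the connexin of atrium and conduction system, which is not in the list.

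Adipoq, which defines fat cells, measured 3.91, 7.71 and 5.33 on the 7-day arrays and 4.57, 5.04 and 3.95 on the 10-week arrays, and the brown fat gene Ucp1 4.30, 11.23 and 9.27 on the 7-day arrays and 3.92, 4.23 and 4.11 on the 10-week arrays. The brown fat list had a mean of 7.89, 9.31 and 8.66 at 7 days and 7.92 to 7.98 at 10 weeks. The fall of Ucp1 (adjusted p = 0.0283) did not pass without 7-day replicate 2 (-2.70) or replicate 3 (-3.68), without any 1 of the 10-week arrays (-4.25 to -4.09), or without both (-0.22). The airway gene Scgb1a1 measured 2.49, 6.83 and 2.62 and the liver gene Alb 3.89, 7.81 and 3.77 at 7 days, against at most 2.76 and 4.12 at 10 weeks. Adipoq did not pass (adjusted p = 0.258) but passed without 7-day replicate 1.

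Of 5 sex-linked genes tested 3 were lower, beside 18.9% of all genes, and the Y-linked genes Eif2s3y and Uty were among them. Eif2s3y measured 7.60, 6.26 and 6.06 on the 7-day arrays and 3.12, 3.30 and 2.87 on the 10-week arrays, a difference of -3.54. Xist, which female cells express, did not pass and measured 8.26, 9.56 and 9.25 on the 7-day arrays and 8.80, 8.69 and 8.97 on the 10-week arrays (interval -0.93 to 0.51, adjusted p = 0.655). Each 7-day array thus held both signals, while Eif2s3y lay below the median of all genes on every 10-week array. The sex makeup of the arrays and the age cannot be told apart, and this holds for every difference above.

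**Figure D4:**
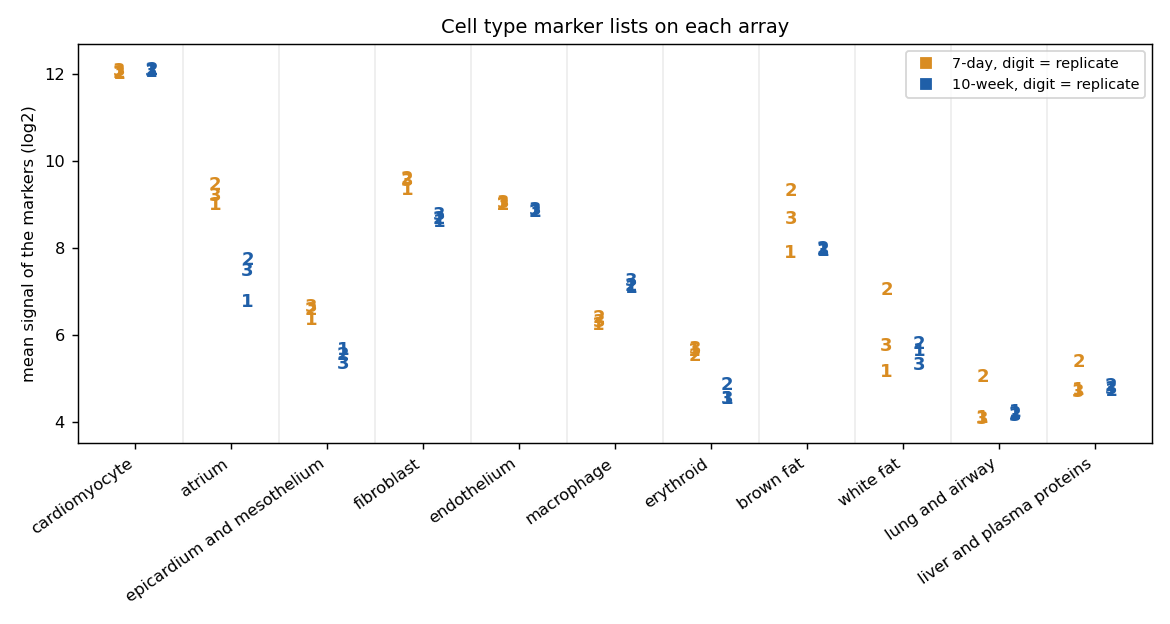
Mean log2 signal of 11 cell type marker lists on each 7-day (orange) and 10-week (blue) array, with the replicate number as the symbol. The cardiomyocyte list stays at most at 12.09 with the ages overlapping, the brown fat list is raised on 7-day replicates 2 and 3, and the atrial list is lowest on 10-week replicate 1.

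The step from 7 days to 10 weeks was also set against the step from 24 hours to 7 days. The steps differ in length and share the 7-day arrays, so that an unusual 7-day value moves both in opposite directions. The later step minus the first-week step was tested gene by gene, and it passed for 3759 genes (18.9%), and for 1210 without both doubted arrays. Among the 29 mitosis genes 26 passed, and the list medians were -0.20 in the first week and -2.37 afterwards. Of the 29 replication genes 27 passed, with medians of 0.19 and -1.07. Collagen chains, with 14 of 23, had medians of 0.15 and -1.14. Of the 20 ketone and branched-chain amino acid genes 16 passed, with medians of -0.15 and 1.16. In complex I 5 of 30 passed, with medians of 0.17 and 0.23.

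Some genes turned at 7 days. Myh7 measured 12.12, 12.42 and 12.23 at 24 hours, differed by -3.09 in the first week and by 1.85 afterwards. Gstm1 differed by -1.01 and then by 2.24, and Timp4 by -1.36 and then by 2.62. Ivd fell by 0.48 before its rise of 1.85, Irf7 fell by 0.79 before its rise of 1.75, and the glucose transporter gene Slc2a1 fell by 0.99 before its rise of 0.59. In the other direction Aldh1a2 rose by 1.06 before its fall, Sema3c by 1.75, Aplnr by 0.61 and Col3a1 by 0.85. These genes were chosen after their values were seen, and each of their steps passed its own test. Other genes moved the same way in both steps, and the test of the difference did not pass. Xirp2 rose by 1.79 and then by 2.61 (adjusted p = 0.0576), and Hey2 fell by 1.86 and then by 1.49 (adjusted p = 0.192).

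**Figure D5:**
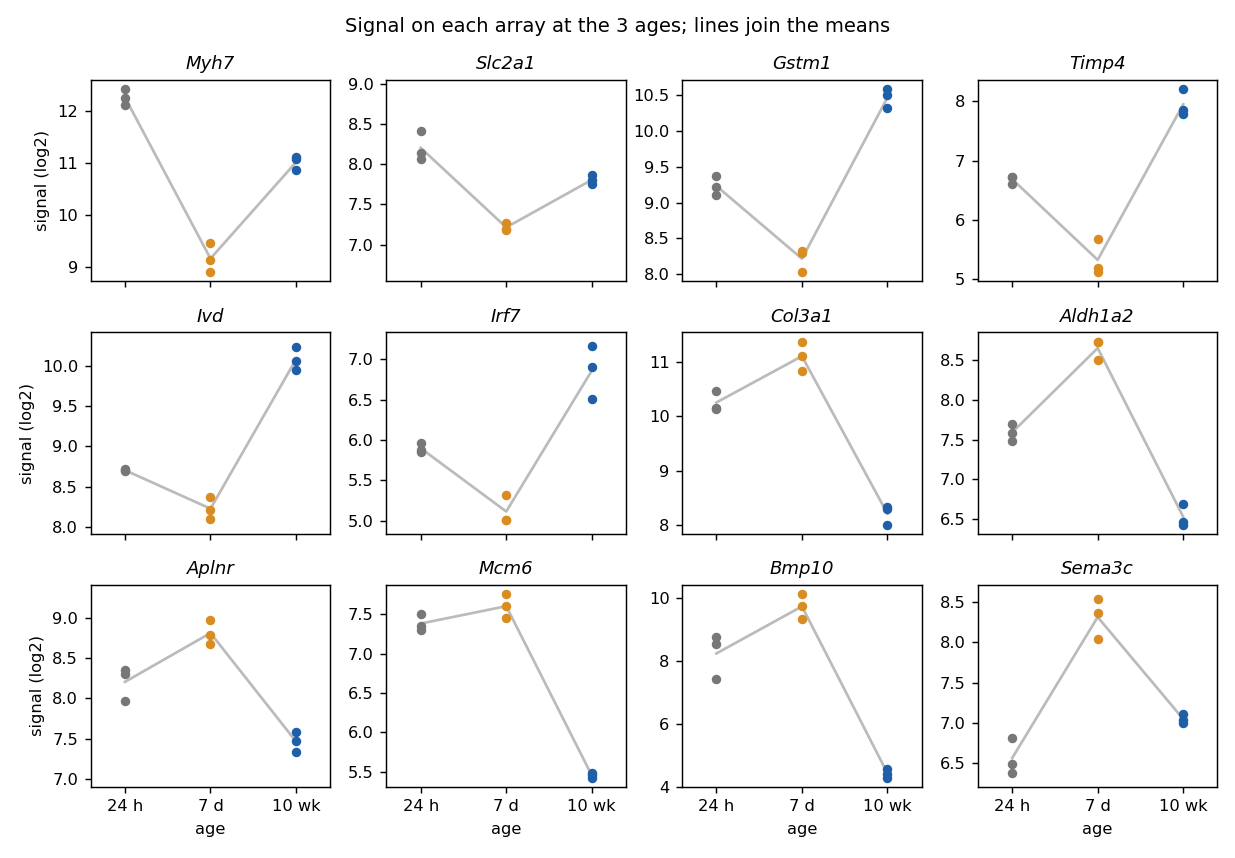
Log2 signal of 12 genes on the 24-hour, 7-day and 10-week arrays, with 1 point per array and a line through the means; each panel has its own axis. Myh7, Slc2a1, Gstm1, Timp4, Ivd and Irf7 were lowest at 7 days, and Col3a1, Aldh1a2, Aplnr, Mcm6, Bmp10 and Sema3c had their highest mean there.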

How the data were processed

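RNA of 9 heart arrays (Affymetrix Mouse Gene 1.0 ST) was measured. The authors deposited a table of log2 signals; the submitters' processing notes name MAS5 5.0, and no source used here gives the probe summary or the normalization. The values ran from 1.853 to 13.583 with no detection flags, so the number of arrays limits the precision and levels are not compared between genes. Of 35556 features, 21789 had 1 symbol in the platform annotation, 1621 had several and 12146 were not listed; 21698 symbols were updated by Entrez ID and 91 kept as given. limma 3.58.1 (R 4.3.3) fitted 1 mean per age to all 9 arrays with an intensity trend (6 residual degrees of freedom), with Benjamini-Hochberg adjustment over 19938 genes. Calls were made below an adjusted p of 0.05. On simulated data (19938 genes) 96% of 100 genes changed by 1 log2 unit and 77% of 100 changed by 0.5 were recovered, and 5.46% of calls were false. The simulated noise was independent and normal, with the same spread at every age. Far fewer genes changed than were called in the data, so these rates check the fit and do not describe this comparison. The members and the 69 gene lists were chosen with earlier results of these data known. Named genes are the 12 largest rises and falls above the median signal without overlap, up to 4 members per list, and a fixed set; others are marked. Promoter windows came from RefSeq (GRCm38.p6). Alternatives were scaling, variance prior, feature choice, a filter on dim genes, a 1.5-fold test, the replicate number as a block, and left-out arrays. Python 3.11.15 with pandas 2.3.3 and scipy 1.17.1 made the tables.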

Additional observations from a re-analysis of the deposited data

How the results depend on the processing

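With each array left out in turn the comparison called between 6124 and 7275 genes, with 2781 to 3509 higher and 3289 to 3766 lower; the 2-fold counts ran from 394 to 429 and from 557 to 634, and the difference of the steps from 2624 to 4178. Centring on array medians called 5247 genes higher. A test against a 1.5-fold change called 1152 genes, 482 higher and 670 lower. Without both 7-day arrays that carried fat transcripts 4156 genes were called, 1865 higher and 2291 lower, and the difference of the steps was called for 1210; this fit has 1 array at 7 days, which is assumed to vary like the other ages. Among genes called both in the reported fit and in an alternative, 0 had the opposite sign. The 329 named genes had 6200 values under the 20 alternatives, leaving aside the fit of every feature. Of these values 5912 kept their side of the threshold, 243 lost the call and 45 gained it. Among values called in the reported fit or in the alternative, 0 reversed. Direction was not compared where neither fit called the gene. Of the 279 called named genes 180 were called under every alternative that held them. With the replicate number as a block 6916 genes were called. Same-numbered arrays of both ages correlated at 0.117, 0.013 and -0.011 in their deviations, and differently numbered arrays at -0.103 to 0.077. So few values cannot tell whether the numbers pair the arrays, and the labels do not say.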

Other observations

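Over all genes 17% were called higher and 18.9% lower, and features outside that comparison are set beside these shares with no test. Of 12146 features that the platform annotation does not list, 459 were higher (3.78%) and 510 lower (4.2%) at 10 weeks, 61 and 112 of them at least 2-fold. Of 1621 features with several symbols, 120 were higher (7.4%) and 294 lower (18.1%), 39 and 73 of them at least 2-fold. Their genes are not named here.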
